A study of Drosophila melanogaster with 2 samples.

Results

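A set of 10 genes of the Drosophila muscle lineage was examined for peaks of the CG18476-eGFP protein: tin, bap, Mef2 and lmd, kirre, sns, rols and blow, and sls and Tm1. The 10 were listed by name for their place in mesoderm, myoblast fusion or the sarcomere, and the list was chosen in part by measured values, namely the strong peak near rols. They are 10 of 13945 protein-coding genes on the chromosome arms examined. Every peak summit in a gene body or within 5 kb of it was taken as belonging to that gene. The values come from chromatin immunoprecipitation sequencing (ChIP-seq) of whole embryos aged 0 to 24 h, male and female pooled, in 1 group of 2 biological replicates. The flies were of a transgenic line that stably expresses CG18476 with GFP fused to its C terminus, and the tagged protein was recovered with an antibody to GFP from chromatin sheared to 200 to 800 bp. An untagged strain was not analysed here, so all values describe 1 genotype. Muscle is 1 tissue among many in a whole embryo. Signal from more cells and more signal per cell cannot be told apart, and no peak can be assigned to a cell type.

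Somatic muscles of the embryo form by fusion of founder cells with fusion-competent myoblasts. Transcription factors act in the mesoderm and in developing muscle. Of these, tin and bap encode NK homeodomain factors of the heart and the visceral muscle. Mef2 encodes a MADS-box factor of muscle differentiation, and lmd a zinc finger factor of fusion-competent myoblasts. Cells then recognise each other through immunoglobulin-type receptors, Kirre on founder cells and Sns on fusion-competent myoblasts, and the adaptor Rols and the cytoskeletal protein Blow act on the inner side of the contact. The fused fibre assembles sarcomeres, in which sls encodes titin-like proteins and Tm1 a tropomyosin.

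The sequences at 6 of the summits are shown as examples of the places described below. Included are the strongest summits in the windows of rols, kirre and Tm1. For tin, sls and Tm1, 1 summit within 500 bp upstream of an own start site is added. Each sequence is the summit base with 50 bp on each side, on the plus strand of dm6. Capitals mark the central 51 bp in which G and C content was measured. The first come from chr3L:12066874-12066974 upstream of rols, chrX:3022617-3022717 in an intron of kirre and chr3R:15275359-15275459 upstream of Tm1. Those labelled by a start site lie upstream of it and do not contain it. They are chr3R:21378709-21378809 by tin, chr3L:2115867-2115967 by sls and chr3R:15281207-15281307 by an inner start site of Tm1. The bases are those of the RefSeq release of the dm6 assembly.
rols upstream: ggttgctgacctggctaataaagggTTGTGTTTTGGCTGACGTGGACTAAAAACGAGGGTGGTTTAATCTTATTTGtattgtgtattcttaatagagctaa
kirre intron: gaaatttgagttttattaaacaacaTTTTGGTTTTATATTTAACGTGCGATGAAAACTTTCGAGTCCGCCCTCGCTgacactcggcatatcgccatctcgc
Tm1 upstream, at CG4338: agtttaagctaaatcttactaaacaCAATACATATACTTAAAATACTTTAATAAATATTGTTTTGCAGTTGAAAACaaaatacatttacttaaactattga
tin start site: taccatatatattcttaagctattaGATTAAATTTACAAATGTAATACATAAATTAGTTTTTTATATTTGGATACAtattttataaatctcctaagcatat
sls start site: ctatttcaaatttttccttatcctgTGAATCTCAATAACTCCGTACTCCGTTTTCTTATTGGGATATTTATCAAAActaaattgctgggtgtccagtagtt
Tm1 inner start site: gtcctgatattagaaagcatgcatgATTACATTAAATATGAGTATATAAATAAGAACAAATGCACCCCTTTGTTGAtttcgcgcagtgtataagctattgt
The tin and CG4338 windows were made up mostly of A and T, with 17.8% and 19.8% G and C over the printed bases. The rols and kirre windows held 38.6% and 40.6%, and the sls and inner Tm1 windows 33.7% and 32.7%.

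The authors' thresholded set, selected by the irreproducible discovery rate (IDR) from the lists of the replicates and the pooled reads, held 29 summits at 7 of the 10 genes. kirre had 14 summits, rols 5, Mef2 4, Tm1 3, and tin, sls and sns 1 each. None lay at bap, lmd or blow. Of all protein-coding genes, 44.6% had a thresholded summit by the same rule, with a median body of 2.17 kb. Apart from tin, at 2994 bp, the 7 genes had bodies of 30560 to 394149 bp. The bodies of bap, lmd and blow had 1570 to 6592 bp. Among protein-coding genes of 100 kb or more, 63.9% had a summit, and the part of gene length was not tested. The count of 7 in 10 takes in the peak near rols that helped to choose the genes, and it was not tested. Some of the 29 lay in overlapping regions, which left 26 separate regions. The gene windows covered 774 kb together, so that there were 3.75 summits per 100 kb against 2.98 over the chromosome arms. The unthresholded list of the pooled reads is labelled as peaks and background, with 29999 regions on the arms. A region in it need not be a peak. All 10 genes had at least 1 region in that list, as did 90.1% of protein-coding genes. Of the 211 such regions at these genes 13.7% were in the thresholded set, against 13.3% of the pooled list as a whole. By the share of regions that passed, the muscle genes thus stood close to the genome.

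Signals are in the authors' units. The first value of a peak is that of the pooled reads, followed in parentheses by replicate 1 and replicate 2. The pooled value is close to the sum of the replicates' values, not to their mean, so the replicates are to be compared with each other. The lists do not give the sequencing depth, so no counting error can be attached. Over the 29 summits the median signal was 103, against 98.2 over all 3995 thresholded summits, and 15 of the 29 were above that median. Signals over 500 were found at 3 of the 29 summits (10.3%) and at 79 of all 3995 (1.98%). Among those 3 is the rols peak by which the list was chosen, and the share was not tested.

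**Figure D1:**
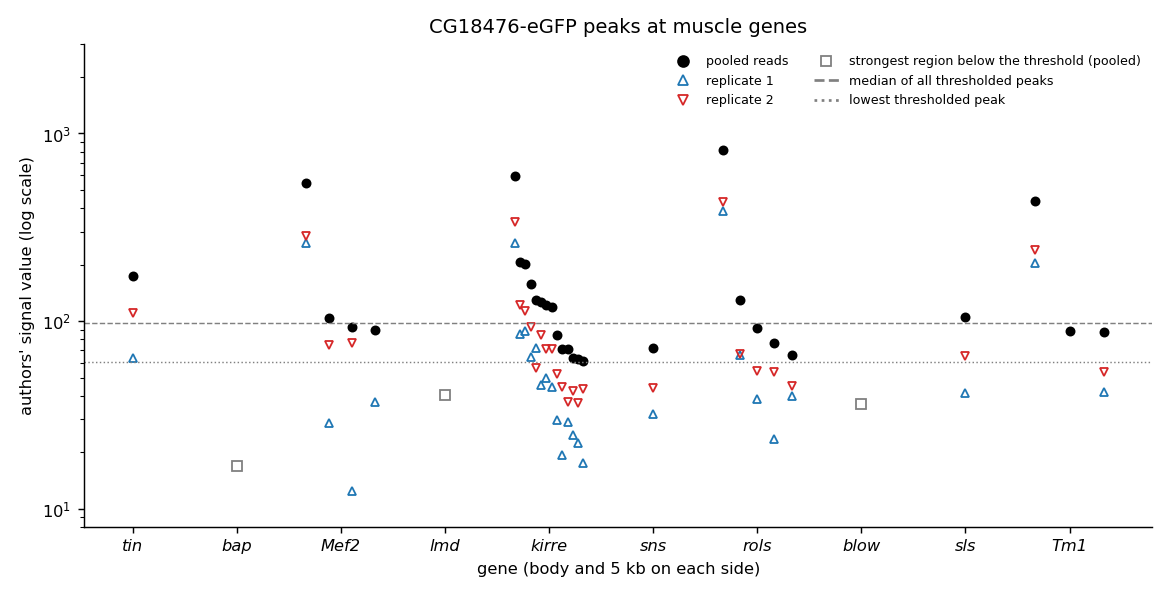
Signal of each thresholded summit (y axis, log scale, authors' units) at each gene (x axis), for the pooled reads and each replicate. The lines, which apply to the pooled reads, are the median and the lowest signal of all thresholded peaks, and squares give the strongest pooled region of bap, lmd and blow, which had none. rols, kirre, Mef2 and Tm1 reach 439 or more in the pooled reads, and tin, sls and sns stay at 173 or below.

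rols (FBgn0041096, chr3L:12008225-12064859, minus strand) had the strongest peak of the 10 genes. The peak lay at chr3L:12066707-12067125, with its summit 2065 bp upstream of the first rols start site, between rols and the end of Sema5c, a semaphorin gene on the same strand. Its signal was 819 in the pooled reads, 388 in replicate 1 and 433 in replicate 2. It ranked 24 among all thresholded peaks, 22 among the regions of replicate 1 and 26 among those of replicate 2. The peaks ranked directly above and below it had signals of 841, near lncRNA:CR44619, and 798, near CG9147. A second summit 199 bp farther upstream, in an overlapping region, had 66.3 (40.0 and 45.1). The other 3 rols summits lay in its introns. The first of these, at 129 (65.6 and 66.9), was 503 bp upstream of the inner start site, just outside the 500 bp that define a promoter peak here. The next, at 76.3 (23.6 and 53.4), was 2561 bp downstream of that start site, and the last, at 91.9 (38.3 and 53.9), was 18553 bp downstream and nearer to the start of CG6793, at 4466 bp. Of the 5 summits 4 had a rols start site as the nearest, and the strongest was far above the next in both replicates. With 5 summits in a window of 66.6 kb, rols had 7.50 per 100 kb. 67 protein-coding genes had more summits, and 64 had a stronger one. Just beyond the 5 kb limit, 5208 bp from the gene body, stood another thresholded summit, near Pop2, with a signal of 114.9. On the inner side of the limit, the farthest summit from its gene body was that of sns, at 3999 bp.

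kirre is by far the longest of the genes, with a body of 394149 bp on X (FBgn0028369, chrX:2740384-3134532, plus strand) and 52.2% of all the window sequence, and it held 48.3% of the summits. Its 14 summits gave 3.46 per 100 kb, near the 2.98 of the arms. Only 3 protein-coding genes, sbb, ush and CG1677, had more summits, with 15, 15 and 16. The 83 protein-coding genes of 100 kb or more had a median of 1 summit and of 0.881 per 100 kb, and 14 of them were denser than kirre. The strongest kirre peak, at chrX:3022388-3022841, had a signal of 595 (259.6 and 339) and ranked 48 in the thresholded set, 52 in replicate 1 and 48 in replicate 2. It lay in an intron, 33616 bp downstream of the nearest start site of any gene, which is an inner start site of kirre. A further 5 summits, all weaker, stood within 25 kb of it, at 84.3, 61.1, 71.3, 70.8 and 122. Those 6 summits spanned 27298 bp without a start site of any gene among them. The second strongest, at 207 (84.8 and 121), lay 2324 bp upstream of another inner start site of kirre. The remaining summits stood closer to genes that overlap kirre or lie in its introns. At Syx4, which encodes a syntaxin, a SNARE protein of membrane fusion, 2 summits lay upstream of start sites: 202 (88.6 and 113) at 165 bp, and 118 (44.7 and 70.9) at 358 bp from an inner start site, within a Syx4 intron. At CG3588 a summit of 129.7 (71.4 and 56.0) lay 152 bp inside the gene, and another of 62.7 stood 7112 bp before it. Near CG32795 there were 157 (64.2 and 92.6) and 127 (45.5 and 84.6), and near lncRNA:CR43494 63.8. No kirre summit lay within 500 bp of a kirre start site, although the gene has 6 annotated ones.

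**Figure D2:**
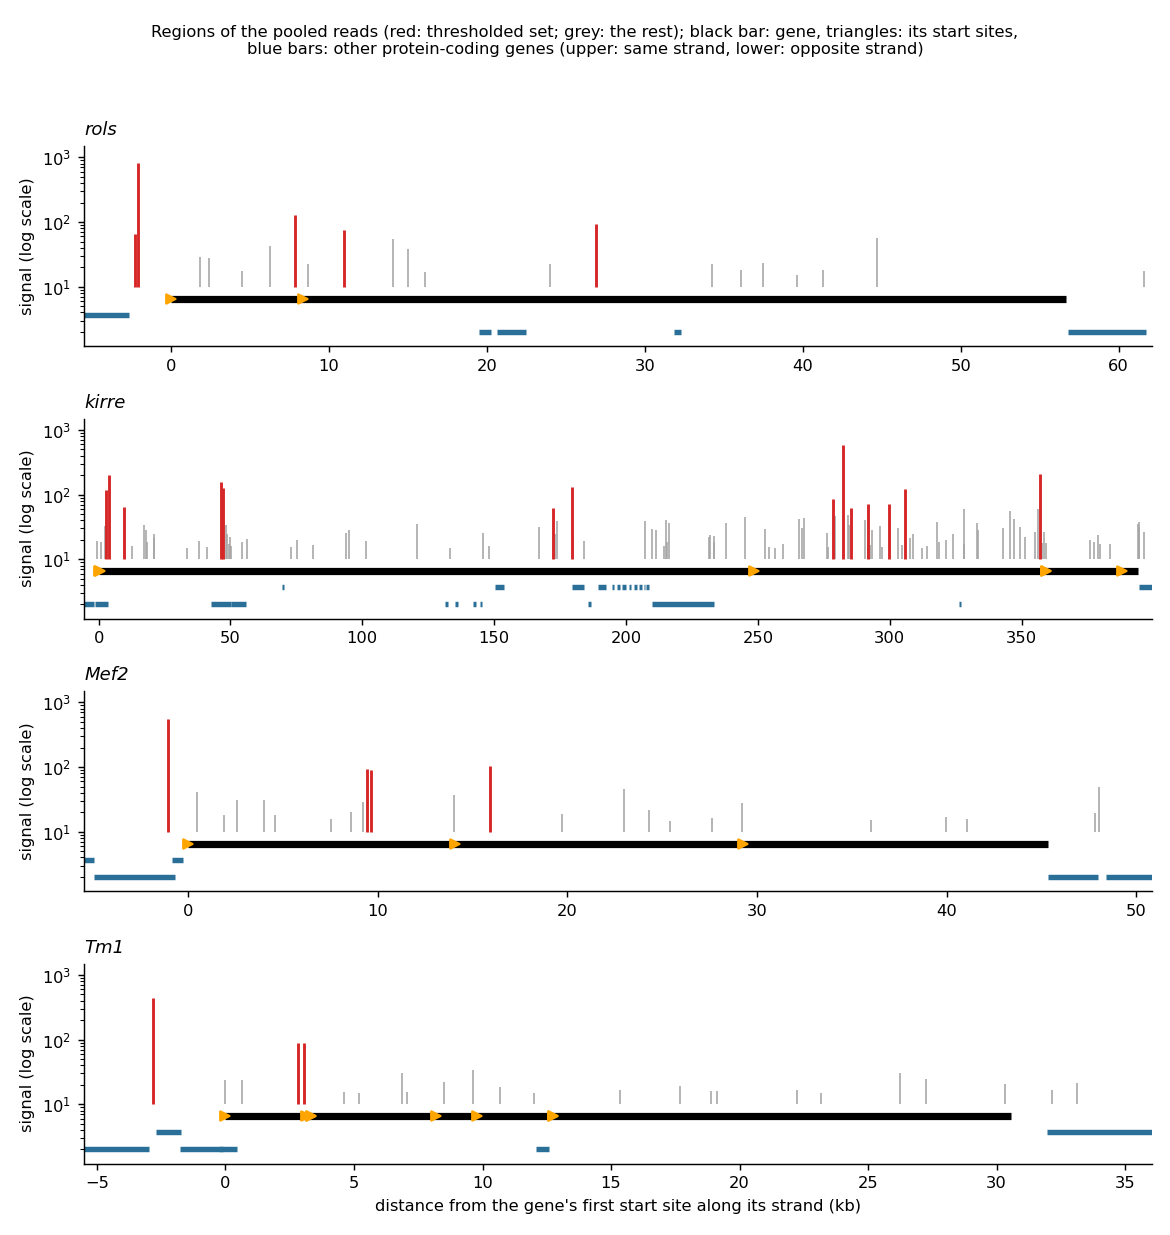
Regions of the pooled reads along rols, kirre, Mef2 and Tm1: signal (y axis, log scale, authors' units) against distance from the first start site along the gene's strand (x axis, kb). In rols, Mef2 and Tm1 the tallest red line stands before the gene's first start site, at 2065, 1057 and 2811 bp, and in kirre it stands far inside the body.

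Of the fusion genes besides rols and kirre, sns and blow had no strong peak. sns (FBgn0024189, chr2R:8798489-8856091, plus strand) had 1 summit, 3999 bp beyond its end, with a signal of 71.7 (32.0 and 43.7). That summit lay 274 bp upstream of RyR, which encodes the ryanodine receptor, the calcium release channel of muscle, and 61601 bp from the sns start site. At blow (FBgn0004133, chr2R:7580488-7587079, minus strand) the strongest region had 36.2 in the pooled reads (17.0 and 22.7), 263 bp from a blow start site, and did not enter the thresholded set. The 4 fusion genes together had 20 of the 29 summits and 3.60 per 100 kb, the 4 mesoderm factors 5 and 5.42, and the 2 sarcomere genes 4 and 3.16.

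The mesoderm factors divided into 2 genes with thresholded summits and 2 without. Mef2 (FBgn0011656, chr2R:9913496-9958858, minus strand) had 4 summits and tin 1. The strongest peak in the Mef2 window, at chr2R:9959737-9960096, had a signal of 546 (259.6 and 286) and rank 64. It lay 1057 bp upstream of the first Mef2 start site, but only 163 bp upstream of an inner start site of Pal1, within an intron of that gene. Pal1 encodes an amidating lyase and lies on the opposite strand. Pdrg1, on the Mef2 strand, lies between the summit and Mef2, with its start 183 bp from the summit. The other 3 Mef2 summits were within the gene. A summit of 103 (28.4 and 74.3) stood in a 5' UTR exon, 1810 bp downstream of the middle start site. A further 2 summits, 235 bp apart in overlapping regions, stood in an intron 4457 and 4692 bp upstream of that site, with 90.0 and 93.5. The replicates differed at this pair. Replicate 1 had 36.8 at the first and 12.4 at the second, while replicate 2 had no summit within 100 bp of the first and 76.8 at the second. tin (FBgn0004110, chr3R:21378977-21381970) had a promoter peak 218 bp upstream of its only start site, with a signal of 173 (63.7 and 111). It ranked 731 of all thresholded peaks. bap (FBgn0004862, chr3R:21388880-21390449) lies 6909 bp beyond tin on the same strand and had no thresholded summit. Its strongest region reached 16.8 in the pooled reads and had no summit within 100 bp in either replicate. lmd (FBgn0039039, chr3R:23021222-23026713, minus strand) had a single region in the pooled list, 2004 bp from its start site. It had 40.5 in the pooled reads, 24.2 in replicate 1 and no summit within 100 bp in replicate 2. The regions of bap and lmd stayed below the lowest thresholded signal, 60.6.

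Both sarcomere genes had a summit within 500 bp upstream of an own start site. sls (FBgn0086906, chr3L:2039681-2115611, minus strand) had a single summit in a window of 85.9 kb, 306 bp upstream of its start, with 105 (41.1 and 65.2). It lies between sls and zormin, another gene for a titin-like protein. Tm1 (FBgn0003721, chr3R:15278220-15308779, plus strand) had 3. A pair of overlapping regions lay 114 and 314 bp upstream of an inner start site, with 87.0 and 88.7. The first of these had 42.1 in replicate 1 and 53.8 in replicate 2. For the second neither replicate had a summit within 100 bp, so no replicate signal is given for it. The third and strongest, at chr3R:15275188-15275576, had 439 (203 and 239) and rank 104. It stood 2811 bp before Tm1, between Cp190, which encodes an insulator protein, and CG4338. The summit was 113 bp upstream of the CG4338 start site and 168 bp from the start of Cp190, which lies on the opposite strand. In Tm1, as in Mef2, the strongest peak of the window was therefore within 500 bp of start sites of neighbouring genes.

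Of the 29 summits, 15 had a start site of the member itself as the nearest and 14 that of another gene. Promoter peaks, with the summit within 500 bp of the gene's own start site, were found at 3 of the 10 genes, tin, sls and Tm1, against 17.7% of protein-coding genes. A further 6 summits were within 500 bp of start sites of other genes only. Nearest were those of RyR, Pal1, CG4338, CG3588 and, with 2 summits, Syx4. In all 34.5% of the 29 were within 500 bp of any start site, against 50.6% of all thresholded summits. More than 5 kb from any start site lay 24.1% against 13.8%, and the median distance was 2065 bp against 482 bp. All 7 summits beyond 5 kb were in kirre. These differences are a description and were not tested. By place, 22 summits were in the body of the member, 6 upstream and 1 downstream. Introns of the member held 21, the 5' UTR exon of Mef2 held 1, and no summit was in a coding exon of any gene.

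**Figure D3:**
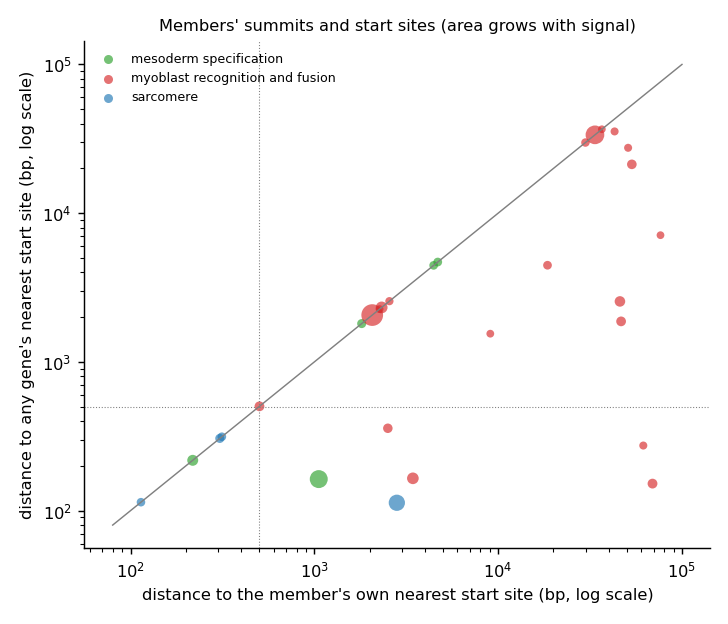
Each of the 29 summits by its distance to the member's nearest start site (x axis, bp, log scale) and to any gene's nearest start site (y axis, bp, log scale), with dotted lines at 500 bp. The 15 points on the diagonal have the member's own start site as the nearest, and the 14 below it, among them the large points at Pal1 and CG4338, have another gene's.

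By summits per 100 kb, tin, rols, Tm1 and Mef2 had 7.70, 7.50, 7.40 and 7.23, above the 2.98 of the arms, and sls and sns had 1.16 and 1.48, below it. Taken gene by gene with the same windows, 31.5% of protein-coding genes were denser than tin, 32.6% than rols, 33.1% than Tm1 and 34.0% than Mef2. A summit more or less moves the short tin window, 13.0 kb, by as much as its whole value. In the unthresholded pooled list, which takes in background regions, the order changed. Tm1 had 59.2 regions per 100 kb, tin 46.2 and Mef2 43.4, against 22.4 over the arms, and lmd and sls had 6.45 and 8.15.

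**Figure D4:**
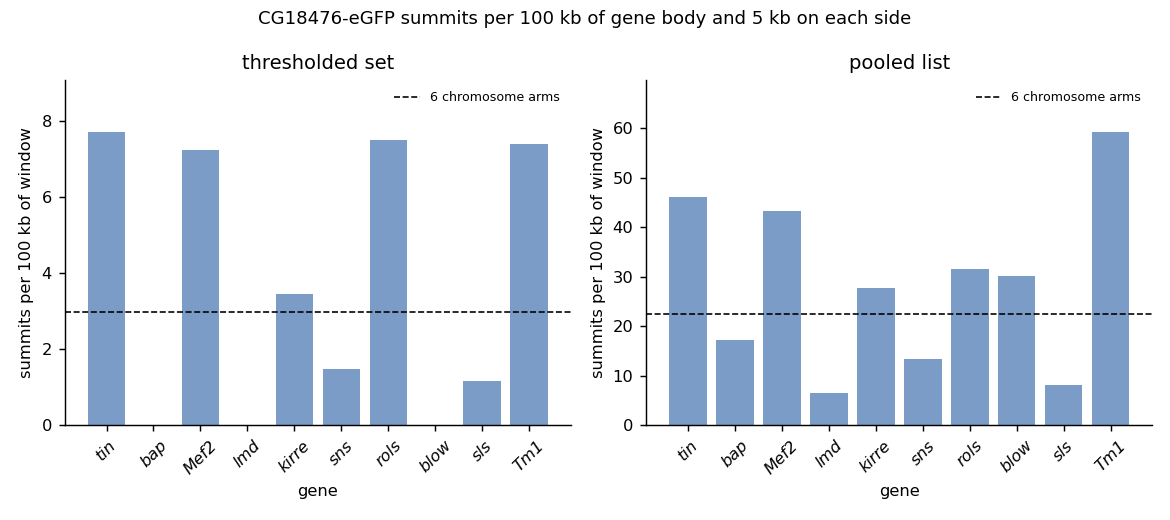
Summits per 100 kb of gene body and 5 kb on each side (y axis) for each gene (x axis), in the thresholded set and in the pooled list. Dashed lines give the 6 chromosome arms, 2.98 and 22.4. bap, lmd and blow have bars only in the pooled list, which takes in background regions.

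The 4 strongest peaks, at rols, kirre, Pal1 by Mef2 and CG4338 by Tm1, ranked 111 or better in each replicate. A replicate summit within 100 bp was found for 28 of the 29 in replicate 1 and for 27 in replicate 2, and for 27 in both. Over all thresholded summits 93.7% had one in both. The replicate lists held 29999 and 30000 regions, so a summit found there can be weak. At the second of the paired Mef2 summits, that of replicate 1 ranked 14564. Replicate 2 gave the higher signal at 26 of 27 summits, and the CG3588 summit in kirre was the exception, at 0.784 of replicate 1. Over all thresholded summits replicate 2 was higher at 75.1%. The median ratio of replicate 2 to replicate 1 was 1.43 for the 27 summits and 1.25 for all, with an interquartile range of 1.00 to 1.57. The deposited signals are not scaled to a common depth, and the part of depth in this ratio was not tested. With an overlap of 0.5 of both lengths required against the 3995 strongest regions of a replicate, 18 of the 29 peaks were matched in replicate 1, 24 in replicate 2 and 17 in both. Of all thresholded peaks, 74.6% were matched in replicate 1, 80.4% in replicate 2 and 63.8% in both. The IDR selection already used these lists.

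**Figure D5:**
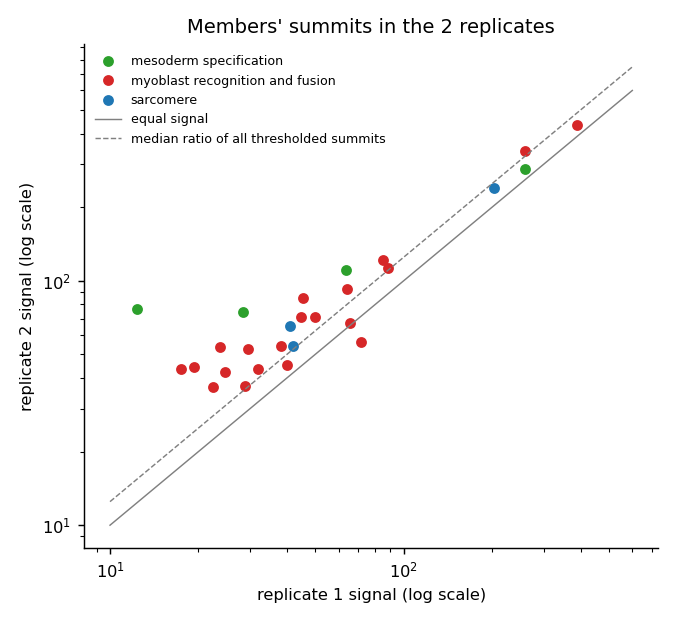
Signal in replicate 1 (x axis, log scale, authors' units) and replicate 2 (y axis, log scale) for the 27 summits found in both. The solid line is equal signal and the dashed line the median ratio of all thresholded summits, 1.25, and 26 points lie above the solid line, farthest for the weak summits of Mef2 and kirre.

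At the summits the sequence was rich in A and T. The median G+C content of the central 51 bp was 29.4% over the 29 summits, from 15.7% at tin to 56.9% at 1 summit each of Mef2 and kirre. It was 31.4% over all thresholded summits. At 1000 bp from the summit, toward higher coordinates, the medians were 39.2% and 43.1%. The summit was poorer in G and C than that flank at 22 of the 29 and at 70.7% of all. The 4 strongest summits did not share 1 composition. The summits at Pal1 and CG4338 had 23.5% and 19.6%, while the strongest of rols and kirre had 39.2% and 41.2%, above their flanks at 31.4% and 21.6%.

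Short sites of muscle and promoter factors were searched on both strands in the summit base and 50 bp on each side. The Tinman site TNAAGTG was in 3 of 29 windows, against 7.21% of all thresholded windows, and the MEF2 consensus was in 2, against 8.14%. The Twist-type E-box CATATG was in 1, near lncRNA:CR43494 in kirre, against 3.80%, and the E-box CAGCTG in 0, against 3.08%. TATAAA was in 8 of 29, against 23.2%, and the Dref site TATCGATA in 0, against 1.38%. With so few windows these counts describe the loci only. The Tinman sites lay at the rols summit 2561 bp downstream of its inner start site and at a kirre summit each near CG32795 and CG3588. The MEF2 matches lay at that CG32795 summit and at the strongest kirre summit, where the match overlapped a TATAAA. The other TATAAA matches stood in the tin window, in both windows at the inner Tm1 start site and in further windows of kirre, which made 5 in that gene. A match is a string of letters and was not tested as a binding site.

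A wider list of 110 other genes, placed by role in mesoderm, fusion, sarcomere or muscle attachment, gave the setting. Not limited to genes of the muscle lineage, it was written from general knowledge with earlier results of these data known. Of the 110, 60 (54.5%) had a thresholded summit in the body or within 5 kb and 18 (16.4%) a promoter peak, against 44.6% and 17.7% of protein-coding genes. Their median body, 8.73 kb, was longer. Their windows held 3.36 summits per 100 kb. By role, 19 of 33 mesoderm genes had a summit, 14 of 25 fusion genes, 13 of 33 sarcomere genes and 14 of 19 muscle attachment genes. Promoter peaks were at 4, 7, 4 and 3 of them. In the same order the median bodies were 12.2, 7.27, 4.97 and 14.7 kb, and the part of length in these shares was not tested. Among mesoderm genes the highest signals besides Mef2 were at bin (236; 103 and 134), a forkhead factor of visceral muscle, and zfh1 (223; 113 and 106), a zinc finger homeodomain factor, within 1467 bp of their own start sites, and at the T-box gene org-1 (212; 88.3 and 125), with a promoter peak at 330 bp. Among fusion genes Ced-12, which encodes a partner of the Rac activator Mbc, had 845 (405 and 456), ahead of rols and kirre, but that summit lay 215 bp from the ThrRS start site and 5698 bp from that of Ced-12. siz, a gene for an Arf exchange factor, had 221 (96.8 and 123), the highest of its 6 summits, and drk, an adaptor gene, 212 (107 and 104), nearest to mars. Among sarcomere genes Strn-Mlck, a myosin light chain kinase gene, had 594 (249 and 358) and Mlp84B, a muscle LIM protein gene, 252 (98.2 and 148), both closer to another gene's start site, CG8320 at 73 bp and Alh at 585 bp. Msp300, a nesprin gene, had 218 (98.2 and 119.8), 332 bp from its own start site. Among attachment genes stck had 194 (74.0 and 130.2), 1276 bp from its own start site, Tsp 168 (72.9 and 95.3) and mew, an integrin alpha gene, 164 (72.0 and 87.6), the last 2 nearest to Nhe3 and CG32639.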

How the data were processed

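Per the labels and the README texts deposited with the files, the authors called regions on the pooled reads and on each replicate against a control and derived the IDR thresholded set from those lists. Not given in the sources used here were the aligner, the region caller and the IDR cutoff. Each deposited signal of a region is in the authors' units and, since pooled values are near the sum of the replicates, not scaled to a common depth, and the deposited -log10 q was used only to describe regions. Depth is unknown. The dm6 lists were used, with positions 1-based, and the dm3 lists were not used here.

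Genes and start sites came from Ensembl release 115 for the 6 main arms, with transposable elements left out, and bases from the matching RefSeq assembly. The 10 members and the wider list were chosen with earlier results of these data known, and 3 of its 120 symbols were matched through RefSeq synonyms. Named were all members, genes at their summits, the 3 highest of each role, and the neighbours in rank of the rols peak. No test was run: 1 group of 2 libraries allows none between groups, and the measure helped to choose the genes. The replicate signal is that of the nearest replicate summit within 100 bp. The window, overlap and window length steps were tested on simulated data, and the motif search was not. Alternatives were other windows, lists, promoter distances and overlaps. Python 3.11.15, NumPy 2.4.6, pandas 2.3.3 and Matplotlib 3.10.9 were used.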

Additional observations from a re-analysis of the deposited data

How the results depend on the processing

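The count of 29 summits at 7 genes was 27 to 29 at 7 genes when either replicate was left out and the strongest 3995 regions of the other were taken, 29 with region midpoints, 25 at 6 genes with 2 kb on each side and 31 at 7 with 10 kb, where 31.3% and 58.9% of protein-coding genes had a summit. With the gene bodies alone it was 22, at 4 genes, since the summits of tin, sls and sns lie outside, against 10.4% of protein-coding genes. Those 4 genes have bodies of 30560 to 394149 bp, against a median of 2.17 kb over protein-coding genes. In the upper 1997 peaks by signal the count was 15, at 6 genes, against 28.9% of protein-coding genes. Without kirre, a setting added after seeing the data, it was 15, at 6 genes. Summits per 100 kb, 3.75, were 3.49 to 3.75 with either replicate left out, 1.94 in the upper 1997 peaks, 27.3 in the pooled list and 4.06 without kirre. The upper 1997 are only part of the 3995 peaks, so 1.94 is not comparable with the 2.98 of the arms. For the pooled list the arms had 22.4. Promoter peaks were at 2 genes within 250 bp and at 4, with rols added, within 1000 bp, against 13.9% and 20.4% of protein-coding genes. With 100 bp on each side of the summit TATAAA was in 10 windows, the Tinman site in 6, the MEF2 consensus in 3 and the Twist-type E-box in 2. CAGCTG and the Dref site stayed at 0. Such windows hold more bases, and the share of all thresholded windows at this width is not given here. Matches to the replicates rose to 23 and 29 with an overlap of at least 1 bp. No paired analysis was possible because there is 1 group. The unknown depth sets the limit: the absence of a thresholded summit at bap, lmd and blow cannot be read as absence of the protein.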

Other observations

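The body of kirre holds 22 annotated genes, 21 of them protein-coding, and most had no thresholded summit within 5 kb. Among these was rst, a paralogue of kirre that also acts in myoblast recognition, which had 0. Of the 22, 4 had any: CG32795 and w, with the same 2 summits, and CG3588 and lncRNA:CR43494, with 1 each. Of all protein-coding genes, 44.6% had a thresholded summit in the body or within 5 kb. Many of the nested genes lie within 5 kb of each other, so their windows overlap and are not separate counts. The 22 also take in a noncoding RNA gene, which that share leaves out. The difference was not tested. Nested genes were singled out after the kirre values were seen.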
